A study of Mus musculus with 39 samples.

Results

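The Id genes encode ID proteins, small helix-loop-helix proteins that inhibit transcription factors. The genes Id1, Id2, Id3 and Id4 were taken by symbol from a table of gene expression in mouse brown fat, where they are 4 of 24116 gene entries, and all 4 were present. Binding sites of the repressor BCL6 whose nearest gene is an Id gene were taken from a list of 3022 sites, and 1 site, near Id2, met this rule. RNA came from interscapular brown adipose tissue, a heat-producing fat depot of the upper back, taken from C57BL/6J males. All mice carried a Bcl6 gene flanked by recombination sites (BCL6-floxed, or BCL6ff). The control mice had no Cre (Cre-), and the other mice carried UCP1Cre, a Cre recombinase driven by the promoter of the brown fat gene Ucp1, so recombination is directed to adipocytes and not to the other cells of the tissue. Mice of both kinds were kept at 22 °C or at 30 °C on standard chow with equal hours of light and dark, which gave 4 groups of 4 libraries, 16 in all. Ages were not stated. Nothing in the labels ties each of the 4 libraries to an animal of its own, and p-values below therefore measure only the spread between these samples, which may be technical. The design asks how loss of BCL6 and housing temperature change the brown fat transcriptome.

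ID proteins have a helix-loop-helix domain for pairing but lack the basic stretch that touches DNA. They pair with E proteins, the widely expressed basic helix-loop-helix (bHLH) factors encoded by Tcf3, Tcf4 and Tcf12, and so keep them from binding E-box sites alone or with tissue-restricted bHLH partners. Id genes are well known as direct targets of BMP signalling through SMAD proteins, and they respond to serum, hypoxia and hormones in many cells. In fat, Id1 is made by endothelial and other stromal cells as well as adipocytes, and ID proteins have been tied to adipocyte differentiation and energy use.

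Id1 differed between groups too, but the promoter reference used held no entry for it. Promoters of 3 members are shown because these members also differed between groups and had an entry. They are the 250 bases before the annotated start, from RefSeq (assembly GRCm38.p6, the build also called mm10), for the 3 members that matched, Id2, Id3 and Id4. Each is written on the strand of the gene, and capitals mark matches to 4 motifs searched on both strands. The motifs were TTCNNNGAA (the palindrome of BCL6 and STAT factors), CANNTG (the E-box), GGCGCC (a SMAD-binding GC element) and TGACG (the short form of the cAMP response element, read as CGTCA on the other strand). No 2 matches overlapped.
Id2 (chr12:25096093-25096342, minus strand): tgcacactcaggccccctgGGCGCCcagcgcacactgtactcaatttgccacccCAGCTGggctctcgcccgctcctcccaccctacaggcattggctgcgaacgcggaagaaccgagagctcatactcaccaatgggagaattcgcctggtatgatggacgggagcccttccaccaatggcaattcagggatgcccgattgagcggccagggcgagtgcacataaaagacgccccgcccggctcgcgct
Id3 (chr4:136143572-136143821, plus strand): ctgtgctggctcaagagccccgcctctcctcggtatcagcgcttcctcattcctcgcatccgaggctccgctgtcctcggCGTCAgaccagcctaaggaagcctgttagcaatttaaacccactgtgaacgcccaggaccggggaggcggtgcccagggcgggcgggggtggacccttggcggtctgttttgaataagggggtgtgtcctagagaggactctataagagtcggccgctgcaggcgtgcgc
Id4 (chr13:48260866-48261115, plus strand): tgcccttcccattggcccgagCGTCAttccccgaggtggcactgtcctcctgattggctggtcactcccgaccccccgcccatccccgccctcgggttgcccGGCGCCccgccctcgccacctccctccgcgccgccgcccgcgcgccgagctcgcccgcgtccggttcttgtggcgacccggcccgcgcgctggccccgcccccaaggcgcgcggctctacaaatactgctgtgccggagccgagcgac
GGCGCC began 231 bases before the start of Id2 and 148 bases before that of Id4, and 9.59% of 32851 promoter windows of this length hold it. The E-box of Id2 began 196 bases before the start, and 66.2% of the windows hold one. TGACG began 170 bases before the start of Id3 and 229 bases before that of Id4, and 17.8% of the windows hold it on either strand. TTCNNNGAA, held by 7.02% of the windows, has no match in these 3, which says only that these letters are not in these windows. The window of Id4 was 75.6% G and C, and those of Id2 and Id3 were each at 62.8%.

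Values are normalised counts, the authors' estimated counts after scaling between libraries. Totals ran from 10122739 to 13516936 per library at 22 °C and from 8867615 to 9975035 at 30 °C. Genes above 0 ran from 14311 to 16849, with the fewest in library 1 of the controls at 22 °C and the next fewest (15226) in library 2 of the Cre-labelled mice at that temperature. Depth in reads is unknown. The most frequent value below 6, which may be near what 1 read is worth, was 3.58 in control 22 °C library 1. It was 0.52 to 1.83 in the other libraries, so low values may be coarsest in that library. Only 8 genes held the value there, against 23 to 89 in the others, so it is a rough guide. Bcl6 was higher in the libraries labelled Cre-positive at both temperatures (4466 ± 853 against 1847 ± 608 at 30 °C and 3305 ± 514 against 1079 ± 509.9 at 22 °C, SD, n = 4). Which exons are deleted was not stated, so a value for the whole gene cannot check the deletion. Directions below are therefore those of the libraries labelled Cre-positive, called Cre-labelled. The brown fat markers listed, 15 in all with Ucp1, Cidea and Adipoq among them, were above 0 in every library. Skeletal muscle genes differed most between libraries of 1 group, with summed levels at 30 °C of 939 to 36388 among Cre-labelled libraries.

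Id2 was lower in the Cre-labelled libraries at both temperatures, and no other member passed by Cre label at both. At 22 °C the controls held 460.5, 460.0, 334.6 and 334.5 normalised counts and the Cre-labelled libraries 178, 187, 169.5 and 163. The highest Cre-labelled library lay far below the lowest control, so the groups did not overlap. The means were 174 ± 10.1 against 397 ± 72.6 (SD, n = 4 each), and limma gave a log2 difference of -1.17 (SE 0.14, 2.28-fold lower by the means, adjusted p = 4.76e-05). At 30 °C the controls held 623, 634, 469 and 506 and the Cre-labelled libraries 266, 300.2, 283 and 354, again without overlap. Here the means were 301 ± 38.4 against 558 ± 82.7, -0.89 on the log2 scale (SE 0.14, limma adjusted p = 5.34e-04). Both exact permutation tests gave p = 0.0286 (two-sided), the smallest that 4 libraries against 4 allow. The difference was not shown to depend on temperature (interaction 0.28, 95% interval -0.14 to 0.70, limma adjusted p = 0.683).

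Id1 and Id3 went the other way at 30 °C. Id1 stood at 464, 840.5, 488 and 303 in the controls and at 1180.1, 1092, 1439.7 and 1042 in the Cre-labelled libraries. The highest control lay below the lowest Cre-labelled library, with means of 524 ± 227 and 1189 ± 177 (SD, n = 4 each), and limma gave a log2 difference of 1.27 (SE 0.26, 2.27-fold by the means, limma adjusted p = 0.00458, exact permutation p = 0.0286). Id3 stood at 810.3, 1303, 944 and 931 in the controls and at 1488, 1429, 1680.3 and 1385 in the Cre-labelled libraries. Control library 2 came close to the Cre-labelled range, as it did for Id1, and the groups did not overlap. Its means were 997 ± 212 and 1496 ± 130.2, 0.60 on the log2 scale (SE 0.18, limma adjusted p = 0.0329, exact permutation p = 0.0286). This call for Id3 was lost when any 1 of these libraries at 30 °C was left out: controls 1, 3 and 4 (0.51, 0.58 and 0.58), Cre-labelled 1, 3 and 4 (0.60, 0.55 and 0.64) and with the muscle covariate (0.57), at limma adjusted p = 0.0540 to 0.109, with the same direction throughout.

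Id4, the least counted member, showed no difference by Cre label that passed. At 30 °C it held 53.0, 32.1, 39.1 and 62.2 in the controls and 39.9, 41.4, 56.3 and 29.1 in the Cre-labelled libraries, which overlapped over most of their range. The log2 difference was -0.15 (95% interval -0.78 to 0.48, limma adjusted p = 0.807), and it was 0.0021 and 0.0054 without library 4 of the controls or library 4 of the Cre-labelled mice at 30 °C. By Cre label at 30 °C 2 of the 4 members were thus higher and 1 was lower, where 12.5% of 13176 genes tested were called in either direction (5.65% higher, 6.85% lower). Groups that do not overlap, as for these 3 members, were found for 22.9% of genes.

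At 22 °C only Id2 passed by Cre label, 1 of 4 members where 10.2% of genes were called (5.51% higher, 4.69% lower) and 12.4% had groups that do not overlap. Id1 held 1317, 652, 592 and 608 in the controls and 868, 994, 769 and 942 in the Cre-labelled libraries. Control 22 °C library 1, the library with fewest genes above 0, was the highest of the 8 and the other 3 controls lay below all Cre-labelled libraries. The log2 difference was 0.25 (95% interval -0.31 to 0.81, limma adjusted p = 0.592), and 0.53 without that library (limma adjusted p = 0.162). Id3 held 1226, 875, 666 and 693.5 in the controls and 909, 1098, 849 and 1119 in the Cre-labelled libraries, with the same control library on top. Its log2 difference was 0.23 (95% interval -0.14 to 0.61, limma adjusted p = 0.444), and 0.42 without that library (limma adjusted p = 0.0953). Id4 held 19.6, 17.9, 25.1 and 13.0 in the controls and 11.98, 10.5, 10.5 and 21.98 in the Cre-labelled libraries. Here 3 Cre-labelled libraries lay below every control and the fourth among them, and the log2 difference was -0.46 (95% interval -1.09 to 0.17, limma adjusted p = 0.357).

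**Figure D1:**
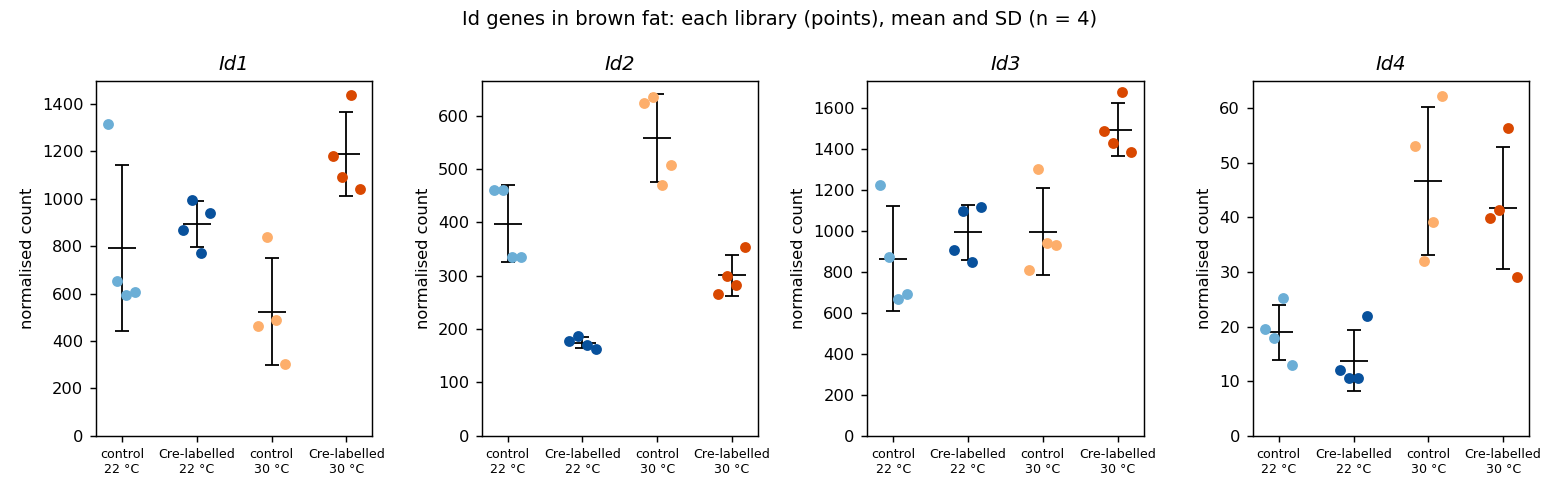
Normalised counts of the Id genes (vertical axis, starting at 0) in each library (points) of the 4 groups, with the group mean and SD (n = 4). Id2 is lower in both Cre-labelled groups, Id1 and Id3 have their highest means at 30 °C with Cre, and Id4 is higher at 30 °C in both kinds of mice; Id1 in control 22 °C library 1 (1317) stands far above the other 3.

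Housing temperature moved the members in another pattern, shared by Id2 and Id4. In controls Id2 was higher in the warm by a log2 difference of 0.49 (SE 0.14, 558 against 397, 1.40-fold, limma adjusted p = 0.00889), and in Cre-labelled libraries by 0.78 (SE 0.14, 301 against 174, 1.73-fold, limma adjusted p = 5.54e-04). The lowest library at 30 °C lay above the highest at 22 °C in both kinds of mice, with the smallest possible exact permutation p of 0.0286 each time. The Cre-labelled libraries at 30 °C (266 to 354) thus came near, and in part reached, the controls at 22 °C (334.5 to 460.5). Id4 was higher at 30 °C in controls by a log2 difference of 1.25 (SE 0.30, 46.6 ± 13.6 against 18.9 ± 5.01, limma adjusted p = 0.00298) and in Cre-labelled libraries by 1.56 (SE 0.30, 41.7 ± 11.2 against 13.7 ± 5.53, limma adjusted p = 8.51e-04). Its groups did not overlap by temperature in either kind of mouse (exact permutation p = 0.0286), and the call in controls was lost under quantile normalization (0.70, limma adjusted p = 0.0744). Its values are low, and the scale used understates such changes.

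Id3 was higher at 30 °C in the Cre-labelled libraries by a log2 difference of 0.60 (SE 0.18, 1496 ± 130.2 against 994 ± 135, limma adjusted p = 0.0161, exact permutation p = 0.0286). In controls the difference was 0.23 (95% interval -0.15 to 0.60, limma adjusted p = 0.311), the groups overlapped, and it passed without control 22 °C library 1 (0.41, limma adjusted p = 0.0417). Id1 passed by temperature in neither kind of mouse. In controls it had a mean of 524 at 30 °C and 792 at 22 °C (log2 difference -0.60, 95% interval -1.16 to -0.045, limma adjusted p = 0.0716, exact permutation p = 0.257). That value was -0.33 without control 22 °C library 1, and it passed without control 30 °C library 2 (-0.86, limma adjusted p = 0.00925). In Cre-labelled libraries Id1 had 1189 at 30 °C and 893 at 22 °C (0.41, 95% interval -0.15 to 0.97, limma adjusted p = 0.256), with no overlap of the groups (exact permutation p = 0.0286). In controls 2 of 4 members passed and both were higher, where 45.5% of genes were called (22.9% higher, 22.7% lower) and 41.2% had groups that do not overlap. In Cre-labelled libraries 3 of 4 were higher, where 32.7% of genes were called (15.0% higher, 17.7% lower) and 34.5% had groups that do not overlap, as all 4 members did. Whether the members differ from other genes in this was not tested. The comparisons share groups of libraries, so they are not independent of each other.

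No member passed as different in its genotype difference between the temperatures, which 0.440% of genes did (0.175% higher, 0.266% lower). Id1 came nearest, with an interaction of 1.01 (SE 0.37, 95% interval 0.22 to 1.80, limma adjusted p = 0.323), and 0.74 without control 22 °C library 1. The values for Id3 and Id4 were 0.37 (limma adjusted p = 0.666) and 0.31 (limma adjusted p = 0.855).

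**Figure D2:**
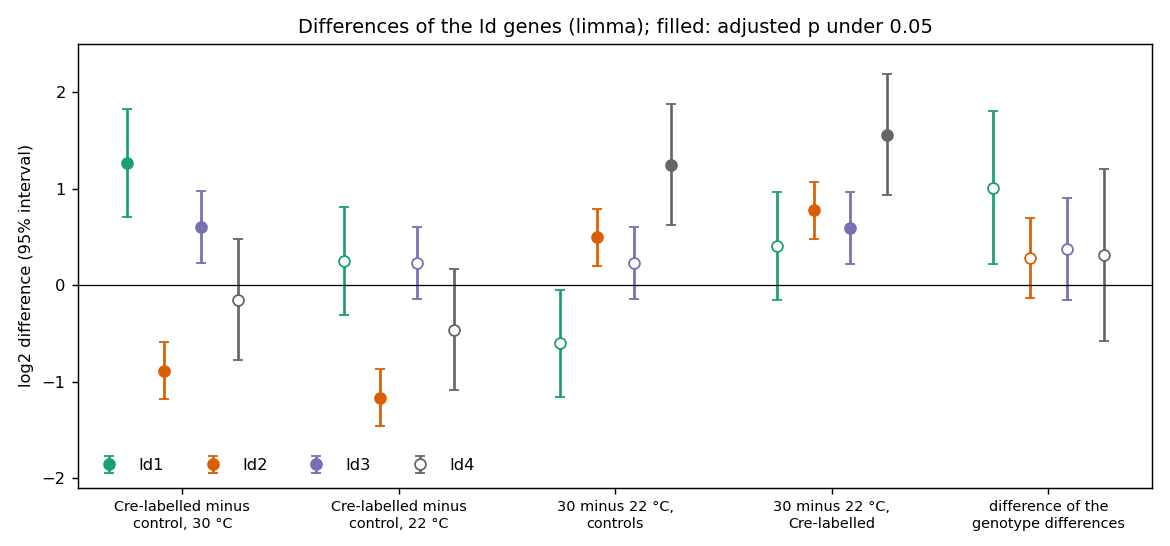
Log2 differences (vertical axis, normalised count plus 1) of the Id genes with 95% intervals from limma for 2 comparisons by Cre label, 2 by temperature and the difference between the genotype differences; filled points have an adjusted p under 0.05. Id2 lies below 0 by Cre label (-0.89 and -1.17) and above 0 by temperature (0.49 and 0.78), and Id1 is filled at 1.27 by Cre label at 30 °C and open in the other comparisons.

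Ordered by group mean, Id1 ran from controls at 30 °C (524) over controls at 22 °C (792) and Cre-labelled at 22 °C (893) to Cre-labelled at 30 °C (1189), and no 2 neighbours in this order passed as different. Id2 ran from Cre-labelled at 22 °C (174) over Cre-labelled at 30 °C (301) and controls at 22 °C (397) to controls at 30 °C (558). Of its neighbours only the middle pair overlapped. Id3 ran from controls at 22 °C (865) over Cre-labelled at 22 °C (994) and controls at 30 °C (997) to Cre-labelled at 30 °C (1496), and the first 3 overlapped. Id4 fell into a low pair at 22 °C (13.7 and 18.9) and a higher pair at 30 °C (41.7 and 46.6), each pair overlapping and the pairs apart. Levels were not compared between members, since the values are not per length.

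Ratios of members within a library do not depend on the scaling between libraries. Id2 divided by Id3 was 0.376 to 0.525 in controls at 22 °C and 0.487 to 0.768 at 30 °C, against 0.146 to 0.200 and 0.168 to 0.256 in the Cre-labelled libraries. The highest Cre-labelled ratio lay below the lowest control ratio of either temperature. Id2 divided by Id1 showed the widest gap at 30 °C, 0.754 to 1.67 in controls against 0.197 to 0.340 in Cre-labelled libraries. Id1 divided by Id3 set 1 group apart from the rest. It was 0.325 to 0.645 in controls at 30 °C and 0.745 to 1.07, 0.842 to 0.955 and 0.752 to 0.857 in controls at 22 °C and Cre-labelled libraries at 22 and 30 °C. Over the 16 libraries Id1 and Id3 varied together (Pearson's r = 0.73, Spearman's rho = 0.80, and r = 0.84 for deviations from the group means, r = 0.83 without the 2 libraries farthest from the median of Id1). Id2 followed neither over all libraries (r = -0.44 with Id1 and -0.07 with Id3), though the deviations from group means gave r = 0.46 with each. These correlations describe values that share a library and its scaling.

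**Figure D3:**
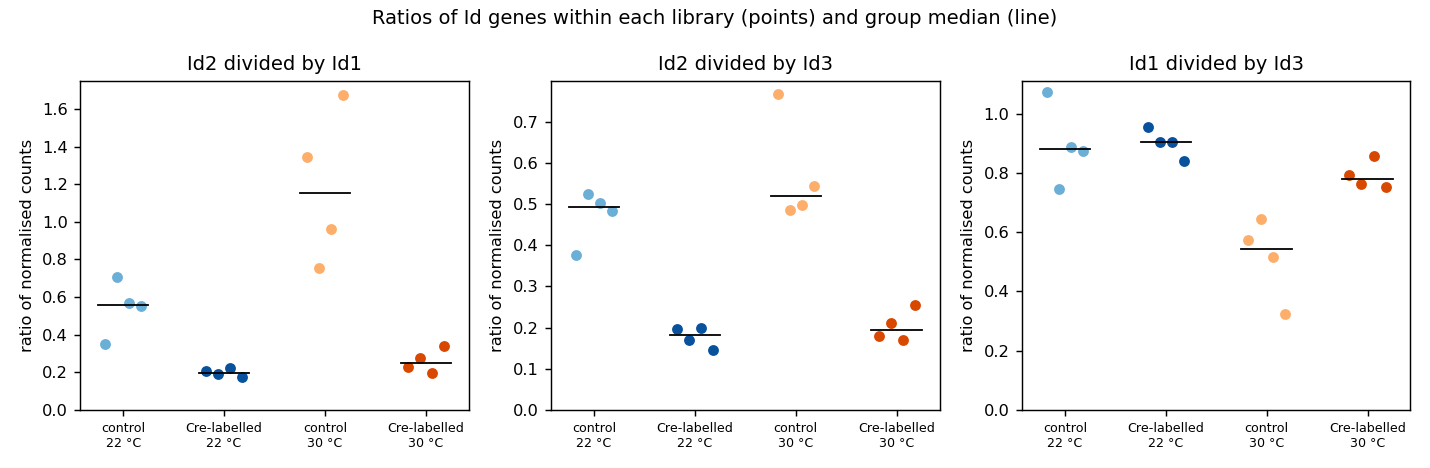
Ratios of normalised counts (vertical axis, starting at 0) of 2 Id genes within each library (points), with the group median (line), for the 4 groups. Id2 divided by Id3 is at most 0.256 in every Cre-labelled library and at least 0.376 in every control, and Id1 divided by Id3 is lowest in controls at 30 °C.

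The genes whose pattern over the 16 libraries was most like that of a member were found among 9297 named genes with a mean of at least 100, by Pearson's r of the log2 values. For Id2 they were Cdh2, which encodes N-cadherin (r = 0.91), Acsm3, Sctr, the secretin receptor, Itpr2, an intracellular calcium channel, and Ptk2b (r = 0.89). For Id1 they were Cwc25, Bcl10, the kinase gene Sgk1, the GTPase gene Rhob and Hsd17b11 (r = 0.85 to 0.81). For Id3 they were Fbxo21, Gstt1, Tmem159, Cnn2 and Sertad1 (r = 0.91 to 0.88), and for Id4 they included Zfand5, Srsf5, Efemp1 and Apcdd1 (r = 0.91 to 0.88).

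Some cell type markers also differed between these groups, and in whole tissue fewer cells of a type and less RNA per cell cannot be told apart. Over all genes 5.65% were higher and 6.85% lower by Cre label at 30 °C, and 5.51% and 4.69% at 22 °C. By temperature 22.9% were higher and 22.7% lower in controls, and 15.0% and 17.7% in Cre-labelled libraries. A list with 1 gene called is not read as a change of its cell type. At 30 °C, beside higher Id1 and Id3 in Cre-labelled libraries, 4 of 16 endothelial markers were higher and none lower, among them Cldn5, a tight junction gene of endothelium (1.43, limma adjusted p = 0.00415). Their summed level was 33512 to 39068 in controls and 39301 to 47266 in Cre-labelled libraries, and none was at 0 in any library. Of 12 macrophage markers 10 were higher, with sums of 3276 to 4091 and 5654 to 13906, none at 0. Mural markers were higher in 2 of 10, with sums of 15342 to 18233 and 17129 to 18847, and fat progenitor markers in 1 of 10 (16064 to 17591 and 17266 to 20046). Of 8 lymphocyte markers tested 1 was higher, and the sums over the 10 in the table were 141 to 214 and 201 to 294. Of 5 white adipocyte markers tested 1 was higher and 1 lower. The sums over the 7 in the table were 3270.3 to 4683 and 12785 to 20393, and Hoxc9 and Hoxc10 were at 0 in at least 1 library of every group. At 22 °C, where neither Id1 nor Id3 passed, endothelial markers were higher in 6 of 16 and macrophage markers in 7 of 12, with 1 lower. The part of these cells in the values of Id1 and Id3 was not tested. Beside lower Id2, brown adipocyte markers were lower in 3 of 15 at 30 °C (sums of 126290 to 146730 in controls and 120510 to 149070 in Cre-labelled libraries) and 2 of 15 at 22 °C (248170 to 386820 and 207910 to 321160). Schwann cell markers were lower in 1 of 8 at each temperature, S100b (-1.18 and -1.53, limma adjusted p = 3.46e-04 and 3.46e-05), with sums of 1746 to 2587 and 1090 to 2418 at 30 °C and 1855 to 2182 and 979 to 1485 at 22 °C. Ncmap was at 0 in at least 1 control library at 22 °C. Their part in the values of Id2 was not tested. Beside the rise of Id2 and Id4 with temperature, in controls 11 of 12 macrophage, 8 of 16 endothelial, 6 of 10 fat progenitor and 9 of 20 skeletal muscle markers were higher at 30 °C and 9 of 15 brown adipocyte markers lower. In Cre-labelled libraries the counts were 12, 5, 6 and 0 higher and 8 lower. Sums of fat progenitor markers at 22 °C were 8392 to 10540 in controls and 10221 to 12343 in Cre-labelled libraries, below all of those at 30 °C. The part of these cells in the temperature differences was not tested either.

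The E proteins are the partners that ID proteins hold back, and none was called by Cre label in the reported fit. Of Tcf3, Tcf4 and Tcf12, 0 of 3 passed at either temperature, with log2 differences at 30 °C of -0.15 for Tcf3 (95% interval -0.61 to 0.31), 0.23 for Tcf4 (-0.09 to 0.55) and 0.01 for Tcf12 (-0.34 to 0.36). At 22 °C they were 0.21 (-0.25 to 0.67), 0.39 (0.08 to 0.71) and -0.12 (-0.47 to 0.23). Tcf4 passed at 22 °C in 3 of 28 alternatives, without library 2 of the controls (0.51) or of the Cre-labelled mice (0.50) and without the 2 sparsest libraries (0.35), at limma adjusted p = 0.0301 to 0.0451. In controls Tcf4 was higher at 30 °C (1671 ± 131 against 1208 ± 279, log2 difference 0.50, SE 0.15, limma adjusted p = 0.0132). In Cre-labelled libraries the difference was 0.33 (limma adjusted p = 0.100). There it passed in 3 of 28 alternatives, quantile normalization (0.52, limma adjusted p = 0.0225), scaling to totals (0.62, limma adjusted p = 0.0183) and without library 1 of the controls at 22 °C, which enters the shared spread (0.33, limma adjusted p = 0.0390). Tcf12 had the narrowest range of means, 778 to 842 over the 4 groups.

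Of 32 tissue-restricted bHLH factors, partners that E proteins take in particular lineages, 8 were high enough to test. Twist2, a bHLH repressor of mesenchymal cells, was higher in Cre-labelled libraries at 30 °C (23.8 ± 8.14 against 5.46 ± 2.91, limma adjusted p = 8.61e-04). It was the only 1 of the 8 called there, where 12.5% of all genes were. At 22 °C 2 of 8 were called, Twist2 and Lyl1, both higher, where 5.51% of all genes were higher. These 2 calls were lost in 4 of 27 and 6 of 28 alternatives (limma adjusted p up to 0.106 and 0.126). In controls Twist2 was lower at 30 °C than at 22 °C (-1.65, limma adjusted p = 9.25e-04), as was Tcf23 (-1.84), while Olig1 (4.04) and Lyl1 (1.22) were higher (limma adjusted p = 7.18e-04, 7.76e-05 and 2.46e-04). Among HES, HEY and DEC repressors, bHLH proteins that do bind DNA, none of 7 tested passed by Cre label at 30 °C. At 22 °C 2 of 7 were lower, where 4.69% of all genes were. They were Hey2, a Notch target (20.9 ± 7.59 against 49.7 ± 10.7, limma adjusted p = 0.0116), and Bhlhe40. The call for Bhlhe40 was lost in 10 of 28 alternatives (limma adjusted p up to 0.116). Of 10 other proteins reported to bind IDs, none passed by Cre label at 30 °C and 1 was lower at 22 °C. In both kinds of mice Rbl1, a relative of the retinoblastoma protein, was higher at 30 °C (1.17 and 0.82, limma adjusted p = 2.54e-04 and 0.00500) and the coactivator gene Ppargc1a lower (-1.60 and -1.48, limma adjusted p = 0.00229 and 0.00539).

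BMP signalling acts upstream of Id genes. By Cre label 1 of 13 ligands and binding proteins passed at 30 °C, where 12.5% of all genes did. It was Gdf5, a ligand of the BMP class. Gdf5 was lower at 30 °C (104 ± 31.4 against 318 ± 70.2, log2 difference -1.61, limma adjusted p = 7.31e-04) and at 22 °C (32.6 ± 11.3 against 92.0 ± 24.4, -1.48, limma adjusted p = 0.00194). At 22 °C 3 of the 13 passed, 1 higher and 2 lower, where 10.2% of all genes did. The ligand gene Bmp6 was higher there (746 ± 158 against 478 ± 46.4, 0.62, limma adjusted p = 0.00548) and Bmper, which encodes a BMP-binding protein, lower (68.6 ± 14.3 against 118 ± 18.4, -0.79, limma adjusted p = 0.0166). Both calls were lost with the groups compared alone (limma adjusted p = 0.0595 and 0.0605), and that of Bmper also without library 1 of the Cre-labelled mice at 22 °C. Like Id2, Gdf5 was higher at 30 °C in both kinds of mice (1.80 and 1.66, limma adjusted p = 6.88e-05 and 2.20e-04). None of 15 BMP receptors, SMADs and their regulators passed by Cre label at either temperature. Smad1, which carries the BMP signal to the nucleus, was higher at 30 °C in controls (455 ± 51.4 against 212 ± 47.2, 1.12, limma adjusted p = 8.90e-05) and in Cre-labelled libraries (642 ± 88.6 against 308 ± 60.4, 1.07, limma adjusted p = 2.22e-04). Of 12 other targets of this pathway tested, 1 passed by Cre label at 30 °C and it was lower, Smad6, an inhibitory SMAD (62.9 ± 19.7 against 119 ± 26.1, -0.94, limma adjusted p = 0.0283). That call was lost when any 1 of controls 1, 3 and 4 or of Cre-labelled libraries 1 and 4 at 30 °C was left out (limma adjusted p up to 0.103). Bambi, a decoy receptor, was higher with temperature in controls (1.03, limma adjusted p = 6.33e-04). Calls by temperature in controls were 4 higher and 0 lower among the 13 ligands and binding proteins. They were 2 higher and 2 lower among the 15 receptors, SMADs and regulators, and 2 higher and 3 lower among the 12 other targets. Over all genes 22.9% were higher and 22.7% lower. For Cre-labelled libraries the 3 lists had 5, 2 and 1 higher and 1, 2 and 1 lower (15.0% and 17.7% of all genes). Some of these calls by temperature were not stable. In controls that for Acvr1 was lost in 18 of 28 alternatives, those for Zfp423 and Bmp5 in 5 and that for Ctdsp1 in 2. The call for Ski was lost in 2 and its sign changed in 1. In Cre-labelled libraries the call for Acvr1 was lost in 7, for Zfp423 in 5 and for Bambi in 2. There Ctdsp1 lost its call in 3 and changed sign in 1. The medians of the 3 lists by Cre label at 30 °C were 0.03, 0.09 and 0.08, beside 0.0055 over all genes.

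Among 10 cell cycle genes tied to ID proteins, 1 passed at 30 °C by Cre label, where 12.5% of all genes did. It was Cdkn2c, an inhibitor of cyclin-dependent kinases (1504 ± 164 against 568 ± 19.5, log2 difference 1.40, limma adjusted p = 2.10e-05). At 22 °C 4 of 10 passed as higher, where 5.51% of all genes did, with Cdkn2c first (1.08, limma adjusted p = 3.05e-04). Of these Cdkn2c held in all 28 alternatives run. The calls for the cyclin genes Ccnd1 and Ccnd2 were lost in 2, among them without library 3 of the Cre-labelled mice (limma adjusted p up to 0.0568 and 0.0778). The call for Mycn was lost in 8 of 27, among them without controls 1 or 4 or Cre-labelled libraries 1, 3 or 4 (limma adjusted p up to 0.130). Myc was higher at 30 °C in controls and in Cre-labelled libraries (1.64 and 1.33, limma adjusted p = 7.32e-05 and 6.44e-04). Of 10 fat genes tied to ID proteins, which include Ppargc1a and Srebf1 from the list of binding proteins, 3 were lower and none higher by Cre label at 30 °C. Over all genes 6.85% were lower and 5.65% higher there. Ucp1 was among the 3 (-1.68, limma adjusted p = 2.80e-04), and the calls for Prdm16 and Cidea were lost when 1 library was left out, for 6 and 7 of the 8 libraries compared (limma adjusted p up to 0.0966 and 0.127). The call for Prdm16 was also lost with a replicate block, with the muscle covariate and with scaling to totals. That for Cidea was also lost with no filter on low values. By temperature 4 of these 10 were lower at 30 °C in controls and 3 in Cre-labelled libraries, where 22.7% and 17.7% of all genes were lower. Ucp1 was among them (-2.38 and -3.12, limma adjusted p = 2.77e-06 and 5.45e-07). Lep, the gene of the fat hormone leptin, was the only 1 of the 10 called higher at 30 °C. Its values were 2.40 in controls (limma adjusted p = 2.88e-05) and 2.34 in Cre-labelled libraries (limma adjusted p = 6.61e-05).

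**Figure D4:**
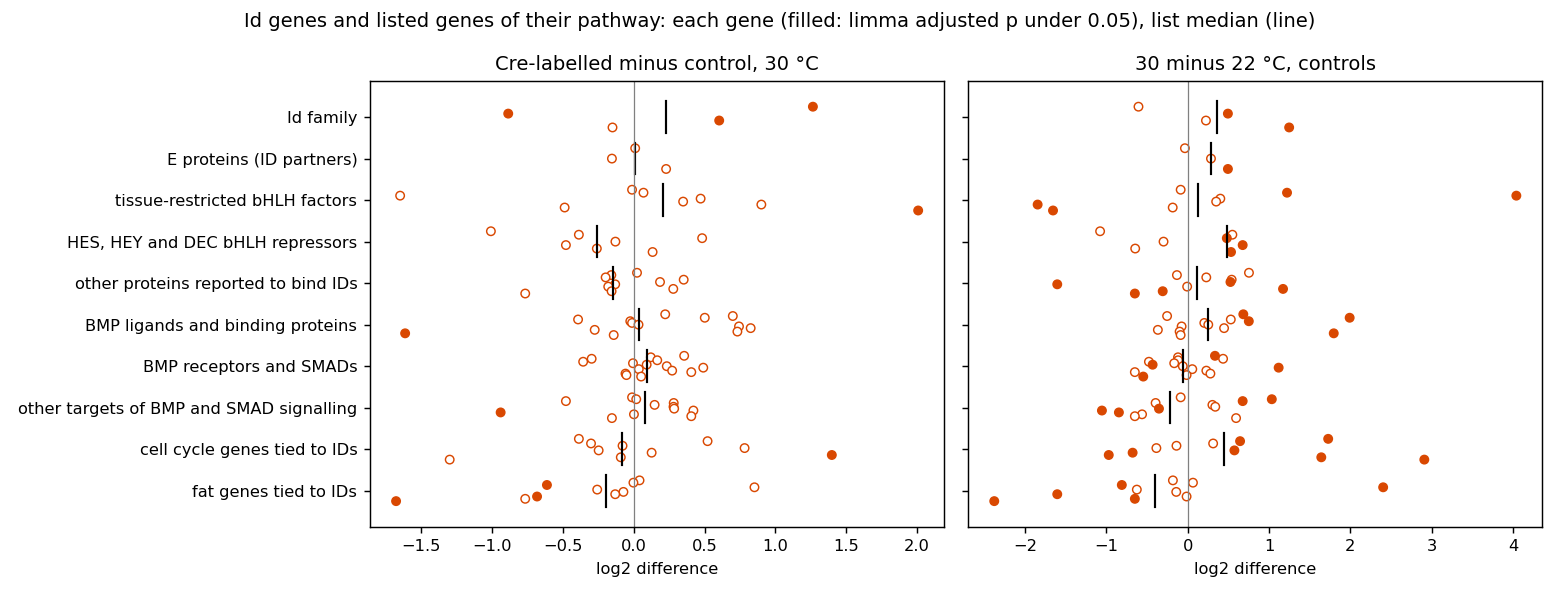
Log2 differences (horizontal axis) of the Id genes and of listed genes around them, 1 point a gene, by Cre label at 30 °C (left) and by temperature in controls (right); filled points have a limma adjusted p under 0.05 and lines are list medians. By Cre label at 30 °C the filled points are 3 of 4 Id genes, 0 of 3 E proteins, 1 of 8 tissue-restricted bHLH factors, 0 of 7 bHLH repressors, 0 of 10 other binding proteins, 1 of 13 BMP ligands and binding proteins, 0 of 15 BMP receptors and SMADs, 1 of 12 other BMP targets, 1 of 10 cell cycle genes and 3 of 10 fat genes. Over all genes 12.5% were called by Cre label at 30 °C. The lists were not tested against each other, and a gene on 2 lists is drawn in each.

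BCL6 binding in Cre-negative brown fat, which the labels place at 30 °C, was listed near 1 member. The site lies at chr12:25104040-25104220 (mm10), 180 bases wide and annotated as intergenic, 8038 bases upstream of the start of Id2 (chr12:25093799-25096092, minus strand). Its score, the authors' value for the peak, was 4.29 where the list runs from 4.11 to 170.0 with a median of 5.18, and 13.5% of the sites had a lower score. No listed site was assigned to Id1 (chr2:152736251-152737410), Id3 (chr4:136143822-136145392) or Id4 (chr13:48261116-48266028). The nearest sites lay 321 kb, 434 kb and 517 kb from these genes and were assigned to Zcchc3, Il22ra1 and Phf2. A site within 10 kb of the start was listed for 7.74% of the genes tested. Among the pathway genes such a site lay 261 bases upstream of Tcf4 (score 5.18), 330 bases upstream of Smad6 (4.83) and 263 bases upstream of Lep (19.8, rank 111 of 3022). Sites within that distance were also listed for Ski (8.76) and Heyl (8.22). The rest were for Zfp423, Smurf2, Acvr2a, Mycn, Twsg1, Cdk4 and Tal1 (scores of 4.29 to 5.54). The labels give 1 BCL6 sample of this kind, with no replicate, and sites in Cre-labelled fat were not analysed here.

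Few genes near the members were high enough to test. Of those within 100 kb 3 were tested for Id1, H13, Mcts2 and Bcl2l1, and 3 for Id3, Rpl11, E2f2 and Asap3. None of the 6 passed by Cre label at 30 °C (log2 differences from -0.58 for E2f2 to 0.09 for H13). E2f2, a cell cycle transcription factor 26.9 kb from Id3, was lower in Cre-labelled libraries at 22 °C (-0.97, limma adjusted p = 0.0429). By temperature in controls H13, Mcts2 and Rpl11 were lower at 30 °C (-0.64, -1.10 and -0.67). E2f2 and Asap3 were higher there (0.81 and 0.92), where 45.5% of all genes were called. With Cre, H13 and Mcts2 were lower at 30 °C (-0.28 and -0.65, limma adjusted p = 0.0499 and 0.00659), with H13 just under the threshold. E2f2 and Asap3 were again higher (1.20 and 0.99), where 32.7% of all genes were called. No neighbour of Id2 or Id4 was high enough to test. A330033J07Rik, which starts within the span of Id4 on the other strand, reached 0.52 at most in control libraries.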

How the data were processed

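RNA of brown fat was measured in 16 libraries and BCL6 binding in Cre-negative fat in 1 peak list. The deposited signal holds normalised counts. The authors made it with kallisto and DESeq2 on mm10, per the submitters' processing notes; versions, annotation and filters were not stated. Per the labels' protocols the libraries were stranded and read singly; whether counting used strand is not stated. The values are not whole numbers, so no reads were recovered. The peak list was annotated with HOMER on mm10, per the file headers. The deposited peak score was used only to rank sites, and the deposited focus ratio was not used.

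Columns were matched to samples by name, with 0 left unused, and 26 symbols turned into dates were restored by Entrez number. Tests used log2(value + 1), the 13176 genes with a mean of at least 10, and limma 3.58.1 in R 4.3.3 with 1 mean per group, a trend with the mean and Benjamini-Hochberg adjustment over all genes kept (threshold 0.05). The fit was tested on simulated data. Exact permutation tests (two-sided, 16 over the members) used 4 libraries against 4. The muscle covariate is the mean log2 level of 20 skeletal muscle genes. Named genes are the members, the 3 E proteins and, per list and comparison, up to 4 called genes by adjusted p; which of these appear was decided after seeing them, as were Cldn5, S100b and Bcl6. Members and lists were chosen with earlier results of these data known. The H3K27ac, ERRa, input and other ChIP samples were not analysed here. 1 gene of the likeness list of Id4 is not reported here.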

Additional observations from a re-analysis of the deposited data

Results flagged for a closer look

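Among 16 groups of 4 values (4 members in 4 groups), 2 held a library far from the other 3, where chance flags about 1 in 20 groups. Id1 in control 22 °C library 1 (1317 against 592 to 652) had a gap to its nearest neighbour of 0.917 of the range of its group. This library also had the fewest genes above 0 and the highest Id3 of its group. Id4 in Cre-labelled 22 °C library 4 (21.98 against 10.5 to 11.98) had a gap of 0.871 of the range, at low values throughout.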

How the results depend on the processing

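The calls for Id2 by Cre label and by temperature, for Id1 by Cre label at 30 °C, and for Id3 and Id4 by temperature in Cre-labelled libraries held under every alternative run. Leaving out 1 library at a time gave 0.51 to 0.74 for Id3 and -0.31 to 0.0054 for Id4 by Cre label at 30 °C, and -0.86 to -0.33 for Id1 and 0.089 to 0.41 for Id3 by temperature in controls. Genes called ranged from 1011 to 2117 by Cre label at 30 °C (1647 in the reported fit), 764 to 2356 at 22 °C (1344) and 21 to 102 for the interaction (58). Without the 2 sparsest libraries these counts were 2795, 2344 and 180, and Id3 by temperature in controls was 0.41 (limma adjusted p = 0.0357). With the groups compared alone 525 genes were called at 22 °C and Id1 by temperature in Cre-labelled libraries was 0.41 (adjusted p = 0.0347). The interaction had 37 calls without the trend and 29 with the muscle covariate, under which Id3 by Cre label at 30 °C was 0.57. Quantile normalization gave 0.70 for Id4 by temperature in controls. Scaling to library totals, chosen after seeing the data, moved the median of all genes by temperature in controls from 0.04 to 0.43 and in Cre-labelled libraries from 0.02 to 0.31. Of the called genes 85.1 and 79.7% were then higher (50.2 and 45.9% in the reported fit), as were 81.3% by Cre label at 22 °C (54.0%), 55.6% at 30 °C (45.2%) and 16.3% for the interaction (39.7%). Id3 by temperature in controls was then 0.62 and Id1 in Cre-labelled libraries 0.69. Replicate numbers did not pair the libraries (24 same-numbered pairs, median correlation of deviations -0.06, and 0.01 over 72 others). A replicate block gave 24 calls for the interaction, 20.8% of them higher, and changed no member's call. The cause of these changes was not tested. With scores at or above the median of the list, 0 sites were assigned to Id2 in place of 1. Values near 0 changed sign in some settings. For Tcf12, leaving out 1 library at a time gave -0.13 to 0.13 by Cre label at 30 °C, -0.205 to 0.00734 at 22 °C, -0.088 to 0.021 by temperature in controls, -0.043 to 0.21 in Cre-labelled libraries and -0.0093 to 0.25 for the interaction. For Tcf3 by temperature in Cre-labelled libraries the range was -0.18 to 0.038. The muscle covariate gave -0.082, 0.0097, 0.19 and -0.092 for Tcf12 by Cre label at 30 and 22 °C, by temperature in controls and for the interaction. Quantile normalization gave 0.13 for Tcf12 by temperature in controls. Scaling to totals gave 0.057 for Tcf12 by Cre label at 22 °C, 0.36 for Tcf12 and 0.043 for Ski by temperature in controls, and 0.21 for Tcf3 and 0.012 for Ctdsp1 in Cre-labelled libraries. Depth in reads is unknown and limits Id4 most, which has no value with a mean of at least 50 required.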
